A study of Mus musculus with 14 samples.

Results

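Retinal pigment epithelium (RPE) from Clic4 knockout mice was compared with RPE from control mice across 3 sets, each of which had its own KO and its own control mice. All 14 of the 14 RNA-seq libraries of the series entered this comparison, 7 KO and 7 control. Every mouse was a 3-month-old on the C57BL/6J background, and both eyes of a mouse were pooled into 1 library. The KO mice were Best1-Cre+/-; Clic4f/f in every set, so the floxed Clic4 gene was deleted by a Cre recombinase under the Best1 promoter, which becomes active after birth in RPE cells. The WT set held 3 KO and 3 wild-type libraries, the Ctrl set held 2 KO and 2 Clic4f/f libraries without Cre, and the CreCtrl set held 2 KO and 2 Best1-Cre+/- libraries without the floxed allele. Control genotype and set cannot be told apart, because each genotype of control occurs in 1 set, and only the CreCtrl controls carry Cre as the KO mice do. The question is which genes and processes differed between KO and control in the same direction in the 3 sets.

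The RPE is a pigmented monolayer between the photoreceptors and the choroid. It regenerates the chromophore of the visual pigments (the visual cycle), engulfs shed photoreceptor tips, moves ions, water and nutrients, and rests on Bruch's membrane. CLIC4 belongs to the chloride intracellular channel family, whose members occur in soluble and membrane-bound forms and have been tied to the actin cytoskeleton and to membrane traffic. RPE cells were shaken off trypsin-treated eyecups, so fibroblasts, vessels, macrophages and melanocytes of the choroid and sclera, and outer segments of the retina, could enter a library. Fewer cells of a type and less RNA per cell cannot be told apart in such bulk samples.

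The promoters of Zfp36 and Dct are shown because each holds a match to a motif known from its group, the immediate-early genes for Zfp36 and the pigment genes for Dct, and they do not stand for the other members of these groups. The 250 bases before the start are given 5′ to 3′ from RefSeq (GRCm38.p6), with motif matches in capitals. For Zfp36, on the minus strand at chr7:28379229-28379478, the capitals mark a CArG box, the binding element of serum response factor. For Dct, on the minus strand at chr14:118052247-118052496, they mark the M-box TCATGTG or its reverse complement, an element known from pigment cell genes. 
Zfp36: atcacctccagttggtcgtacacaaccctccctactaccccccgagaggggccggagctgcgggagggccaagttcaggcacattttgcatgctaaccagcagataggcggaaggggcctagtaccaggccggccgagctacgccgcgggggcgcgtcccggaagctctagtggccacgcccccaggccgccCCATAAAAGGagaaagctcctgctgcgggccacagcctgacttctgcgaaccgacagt
Dct: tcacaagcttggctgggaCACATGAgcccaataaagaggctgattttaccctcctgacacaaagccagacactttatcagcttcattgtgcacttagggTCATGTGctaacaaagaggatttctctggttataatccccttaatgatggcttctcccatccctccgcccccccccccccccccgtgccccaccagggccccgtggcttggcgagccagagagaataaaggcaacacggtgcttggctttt
A CArG box lay in this window in 2 of the 17 immediate-early genes with a promoter in the table, Zfp36 and Egr2, and in 1.62% of all 27025 genes. Fos, Jun, Junb and Nr4a1 had no match in these 250 bases. The M-box lay there in 5 of 9 genes of melanin synthesis and the melanosome and in 3.72% of all genes. Oca2 and Myrip, 2 pigment genes that were higher in KO in every set, had no match. Both strands were searched, but no bases further upstream, and a match is a description of the letters only.

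The libraries held 9828293 to 32384166 counts, and the WT controls were among the shallowest, at 9828293 to 12363580. RPE markers were present in every library, where the 12 marker genes took 1.81 to 6.05% of the counts of a control library and 6.59 to 7.13% of those of a KO library. The 12 fibroblast markers, among them Dcn and Col1a1, took 0.153 to 1.19% of the counts of a control library and 0.0136 to 0.0845% of those of a KO library, with no overlap. Ctrl replicate 2 of the Ctrl set stood apart by Krt12, a keratin of the corneal epithelium that was singled out after its values were seen. Levels are given as CPM, the count scaled to a common library size. Krt12 was at 3938 CPM in that library, at 252 CPM in Ctrl replicate 1, and at 6.02 CPM or less in the others. Without that replicate the comparison called 4905 genes in place of 4375. Nothing in the labels says whether libraries of a group were prepared on separate days.

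The comparison was one edgeR quasi-likelihood fit with the set as a covariate (10 residual degrees of freedom), so that each KO library was weighed against controls of its own set. A gene was called where the Benjamini-Hochberg adjusted p was under 0.05 and the fold change above 1.5. Of 16181 genes tested, 1743 (10.8%) were higher in KO and 2632 (16.3%) were lower. A called gene counted as shared by the 3 sets where, within each set, every KO library lay on the same side of every control library. That held for 849 genes higher in KO (5.25% of those tested) and 1574 lower in KO (9.73%), which are 48.7% and 59.8% of the genes called in each direction. Scaled by total counts without TMM factors, the genes called higher were 15.9% of all called genes where they were 39.8% in the fit above, and 260 higher genes were shared. Without Ctrl replicate 2 or KO replicate 2 of the Ctrl set, which leaves 1 library in that group, 1557 or 1446 higher genes were shared. Called or not, 1367 genes were apart in every set with KO higher and 1683 with KO lower.

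**Figure D1:**
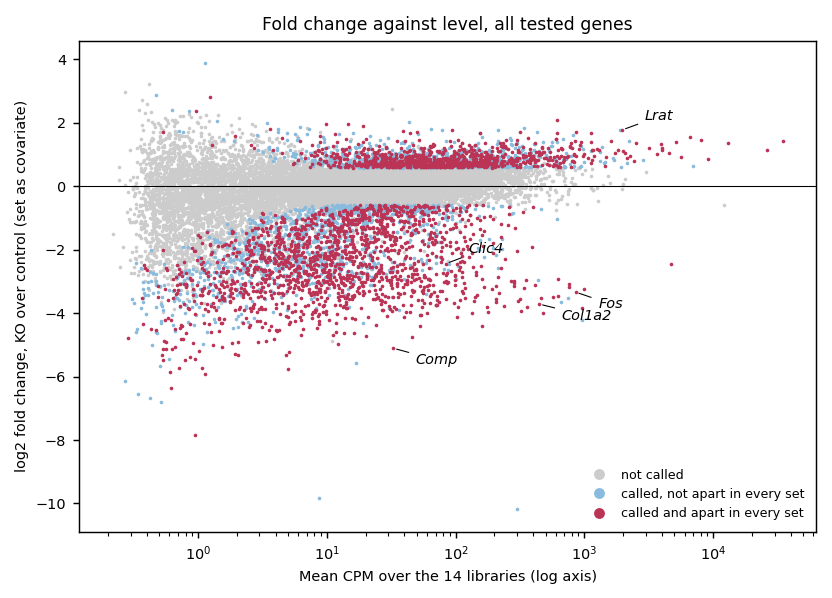
Each point is 1 of the 16181 genes tested, with its mean CPM over the 14 libraries (log axis) against its log2 fold change of KO over control with the set as covariate. Red points are the 849 higher and 1574 lower genes that were called and apart in every set, blue points were called only, and grey points were not called. The lower genes reach much larger folds than the higher ones.

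The 2 directions differed in size. Of the shared genes, 216 were more than 2-fold higher and 1413 were more than 2-fold lower, and differences of more than 8-fold were found in 0% of the shared higher and 31.3% of the shared lower genes. The median log2 fold change of the shared higher genes was 1.27, 0.42 and 0.55 in the WT, Ctrl and CreCtrl sets. For the shared lower genes it was -2.67, -1.98 and -1.97. The median over all genes tested was -0.01.

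Clic4 (ENSMUSG00000037242, chr4:135213969-135272814, minus strand, GRCm38), the deleted gene, was measured first. In the WT set its level was 229.8, 234 and 221 CPM in WT replicates 1 to 3 and 33.2, 23.3 and 18.0 CPM in the KO replicates. The Ctrl set gave 71.2 and 61.6 CPM in Ctrl and 9.74 and 33.8 CPM in KO. The CreCtrl set gave 86.3 and 108 CPM in CreCtrl and 13.5 and 30.1 CPM in KO. The KO libraries reached like levels in the 3 sets, whereas the WT controls lay far above the other controls, and KO and control did not overlap in any set. Clic4 fell by 2.45 on the log2 scale (SE 0.32, edgeR adjusted p = 0.000133), and a two-sided exact permutation test of the labels within sets gave p = 0.00278, the smallest that its 720 arrangements allow. Per set the log2 fold change was -3.20, -1.61 and -2.15, with edgeR adjusted p of 7.56e-05, 0.0916 and 0.0329 in the WT, Ctrl and CreCtrl sets.

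Of the 5 tested CLIC genes, Clic6 was the only one to rise, and Clic4, Clic1 and Clic5 fell, all 4 shared by the 3 sets. Clic6 was at 307, 460 and 538 CPM in WT against 1522, 1593 and 1421 CPM in KO. It was at 804 and 1278 CPM in Ctrl against 1570 and 1378 CPM in KO, and at 1113 and 848 CPM in CreCtrl against 1596 and 1867 CPM in KO. Every KO library was therefore above the controls of its set, with a log2 fold change of 1.15 (SE 0.23, edgeR adjusted p = 0.00182). Clic1 fell by 1.34 (SE 0.20) and Clic5, named after its values were seen, by 2.24 (SE 0.27).

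**Figure D2:**
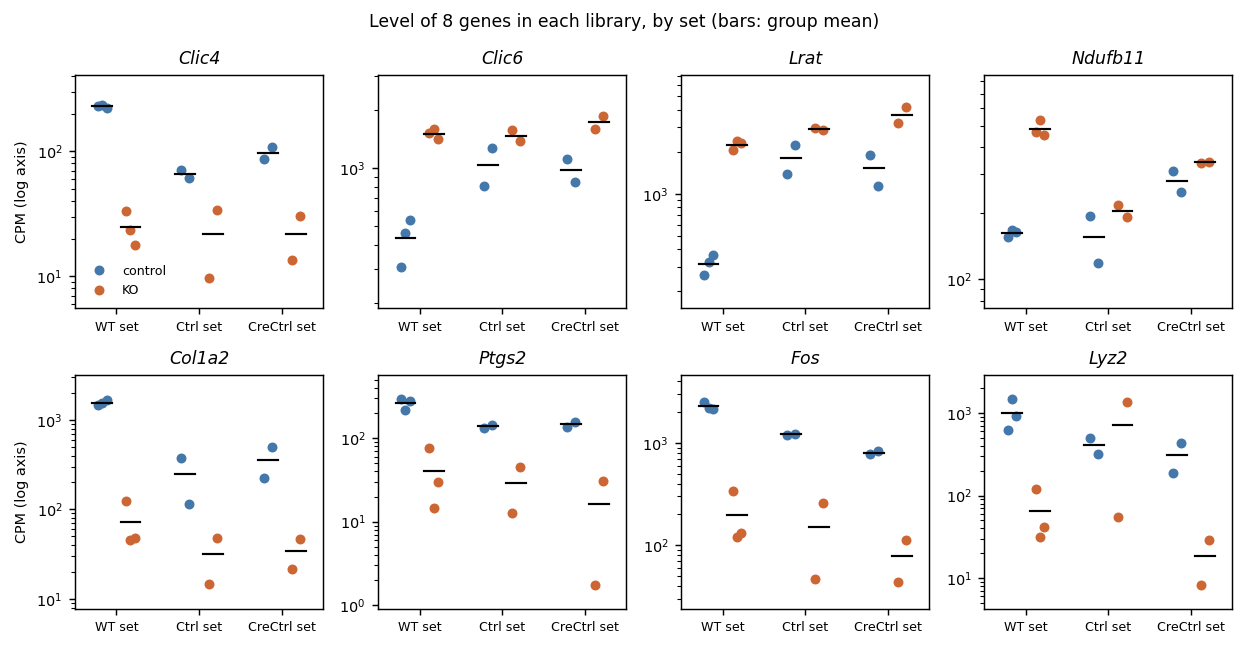
Level of 8 genes in each of the 14 libraries, in CPM on log axes, by set, with control libraries in blue, KO libraries in orange and the group mean as a bar. Clic4, Col1a2, Ptgs2 and Fos were lower in every KO library than in the controls of its set, Clic6 and Lrat were higher, the KO libraries of Ndufb11 overlapped the controls in the Ctrl set, and Lyz2 of KO replicate 2 of the Ctrl set lay above both Ctrl libraries.

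Genes of the visual cycle rose together. In the visual cycle and retinoid list 11 of 12 tested genes rose and none fell, and all 11 were shared, with a median log2 fold change of 1.17 beside the -0.01 of all genes. The size was not uniform, with medians of 1.93, 0.65 and 0.67 in the WT, Ctrl and CreCtrl sets. For 8 of the 12 the sets differed by the interaction of set and KO, beside 3.76% of all genes tested. Lrat, the enzyme that esterifies retinol, was at 259.7, 322 and 364 CPM in WT against 2054, 2395 and 2302 CPM in KO. In the Ctrl set it was at 1381 and 2239 CPM against 2955 and 2855 CPM, and in the CreCtrl set at 1899 and 1145 CPM against 3203 and 4156 CPM. KO was higher in each set (log2 fold change 1.77, SE 0.32, edgeR adjusted p = 0.00124), but by 2.84 in the WT set and by 0.68 and 1.27 in the others, and the sets differed (interaction adjusted p = 0.0186). The light-driven isomerase partner Rgr rose by 1.35 (SE 0.32) and the retinoid carrier Rlbp1 by 1.04 (SE 0.20). Dhrs3, a retinal reductase, had the smallest difference of the list at 0.45 and passed the adjusted p but not the fold.

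Pigment genes were less uniform. Of 14 tested genes of melanin synthesis and the melanosome, 7 rose and none fell, and 4 were shared. The median log2 fold change was 1.53 in the WT set and 0.60 in the CreCtrl set but -0.11 in the Ctrl set. Oca2, a melanosome anion channel, rose by 1.66 (SE 0.34) and was shared, as was Myrip, which links melanosomes to the cytoskeleton, at 1.02 (SE 0.20). Dct, the melanin pathway enzyme whose promoter is given above, rose by 1.07 (SE 0.30) but was not shared, since its Ctrl libraries (1212 and 1869 CPM) enclosed the KO libraries of that set (1527 and 1721 CPM). The melanosome protein Pmel was not called, at 1.15, -1.66 and -1.15 in the WT, Ctrl and CreCtrl sets (interaction adjusted p = 0.0250). It was at 739 CPM in Ctrl replicate 2, the library with the high Krt12, and at 204 CPM in Ctrl replicate 1.

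RPE channels and transporters rose in 16 of 23 and fell in 3, with 8 and 1 of these shared. The lactate transporter chaperone Bsg rose by 1.33 (SE 0.29) and the potassium channel Kcnj13 by 1.47 (SE 0.31). The water channel Aqp1 went the other way, from 57.6, 109 and 92.1 CPM in WT to 23.0, 11.0 and 5.90 CPM in KO, and from 28.1 and 102 CPM in Ctrl to 6.10 and 8.98 CPM in KO. In the CreCtrl set it was at 43.2 and 30.4 CPM against 8.58 and 8.19 CPM, so that no KO library overlapped a control of its set (log2 fold change -2.65, SE 0.34). Aqp1 is also in the list of ciliary and iris epithelium markers, and the part of RNA of such cells in its fall was not tested. Best1, the anion channel whose promoter drives the Cre, had only 1.18 to 6.03 CPM in the control libraries and fell by 1.02 (SE 0.38, edgeR adjusted p = 0.0484), with -1.70, 0.08 and -1.09 in the 3 sets. The other lists of RPE function held called genes in both directions. Of the RPE transcription factors 4 of 12 rose and 2 fell, with a median of -0.093, and of the outer segment phagocytosis genes 2 of 10 rose and 2 fell, with a median of -0.025. By mean log2 CPM, however, the phagocytosis list was lower in every KO library than in the controls of its set. Relative to the control mean it was at -0.26, -0.40 and -0.41 in the WT set. The Ctrl set gave -0.35 and -0.14, and the CreCtrl set -0.40 and -0.16.

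Epithelial junction and apical cytoskeleton genes included 9 of 19 that rose and none that fell, 4 of them shared. Krt8 and Krt18, the keratin pair of simple epithelia, rose by 1.35 (SE 0.30) and 0.96 (SE 0.22). Ezr, the ezrin that ties microvilli to actin, rose by 1.22 (SE 0.28) and was not shared. The medians of this list were 1.03, -0.03 and 0.51 in the WT, Ctrl and CreCtrl sets. In the pooled RPE marker list 9 of 12 genes rose and Best1 fell. Rpe65, Rlbp1, Rgr, Lrat, Rdh5 and Rrh of this list are also in the visual cycle list. The rise of the RPE markers and that of the visual cycle are therefore in part one measurement.

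Genes of mitochondrial energy supply rose in most of their members. Of the nuclear-encoded subunits, 29 of 36 tested for complex I, 22 of 24 for complexes II to IV and 13 of 15 for the ATP synthase rose, and none fell. The number shared was 12, 10 and 6, and all 36, 24 and 15 had a positive log2 fold change. The medians were 0.74, 0.83 and 0.78, and for complex I they were 1.28, 0.38 and 0.34 in the WT, Ctrl and CreCtrl sets. Ndufb11 of complex I was at 156, 168 and 165 CPM in WT against 468.3, 529 and 453 CPM in KO. In the CreCtrl set it was at 309.6 and 249 CPM against 339.6 and 341 CPM, and in the Ctrl set at 194 and 119 CPM against 217 and 193 CPM. The log2 difference was 1.57 in the WT set beside 0.39 and 0.29 in the others, 1 KO library of the Ctrl set lay within its controls, and the sets differed (interaction adjusted p = 0.0278). Ndufs5 had the largest log2 fold change of complex I (1.22, SE 0.28), Cox8a and Cox4i1 of complex IV rose by 1.05 (SE 0.21) and 0.82 (SE 0.20), and Atp5b of the ATP synthase by 0.95 (SE 0.21).

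Mitochondrial ribosomal proteins rose in 25 of 61 tested genes, 12 of them shared, and fell in none. The median was 0.51, and Mrps6 had the largest value at 0.95 (SE 0.17). Of 40 cytosolic ribosomal proteins 0 rose and 4 fell, and the median was -0.23. Beside the 10.8% higher and 16.3% lower of all genes tested, both counts were below the background. Mitochondrially encoded subunits were not analysed here. Of the citric acid cycle 7 of 15 genes rose, 5 of them shared, and of glycolysis 8 of 15, 4 of them shared, with none lower. The medians in the WT, Ctrl and CreCtrl sets were 0.91, 0.19 and 0.46 for the citric acid cycle. For glycolysis they were 1.02, 0.24 and 0.49. The glycolytic enzymes Aldoa and Eno1 rose by 1.11 (SE 0.24) and 1.31 (SE 0.28).

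Fatty acid oxidation and ketogenesis genes rose in 13 of 22 and fell in none, 6 of them shared. The enoyl-CoA isomerase Eci1 was at 75.3, 105 and 112.3 CPM in WT against 398, 454 and 407 CPM in KO. It was at 208 and 157 CPM in Ctrl against 276 and 231 CPM, and at 277 and 209 CPM in CreCtrl against 329 and 346 CPM. Its KO libraries were above the controls in each set, by 2.11, 0.48 and 0.47 on the log2 scale, and the log2 fold change over the sets was 1.17 (SE 0.26). Peroxins of peroxisome biogenesis had a median of 0.38, and rose in 3 of 16 genes beside the 10.8% of all genes tested. All 16 had a positive log2 fold change. The mean log2 CPM of this list was higher in every KO library than in the controls of its set.

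Lipid genes outside the mitochondrion were mixed. In the lipoprotein and cholesterol efflux list 4 of 14 genes rose and 2 fell, and the phospholipid transfer protein Pltp rose by 1.03 (SE 0.19) and was shared. The lipid droplet list had 4 of 12 higher, none lower and 1 shared, the droplet coat protein Plin2. Plin2 was at 53.0, 69.97 and 55.2 CPM in WT against 217, 214 and 236 CPM in KO, and at 99.7 and 88.3 CPM in Ctrl against 141 and 116 CPM. It was at 122 and 72.4 CPM in CreCtrl against 136 and 154 CPM, so KO was above control in each set (log2 fold change 1.10, SE 0.23, edgeR adjusted p = 0.00223). Sterol synthesis genes rose in 3 of 22, none of them shared, a share near the 10.8% of all genes tested, with medians of 0.82, -0.23 and 0.73 in the WT, Ctrl and CreCtrl sets.

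Lysosome and proton pump genes rose in 9 of 22 and fell in 1, with 4 and 0 of these shared. The protease inhibitor Cst3 had the largest value, from 1647, 2479 and 3302 CPM in WT to 14201, 14645 and 13075 CPM in KO. It was at 5747 and 5649 CPM in Ctrl against 9765 and 8587 CPM, and at 7568 and 5026 CPM in CreCtrl against 10270 and 10660 CPM. The KO libraries were above the controls in each set (log2 fold change 1.47, SE 0.33). Antioxidant and glutathione genes rose in 9 of 21, 7 of them shared and led by catalase (Cat, 1.17, SE 0.22), and Gstm1 alone fell, by 1.04 (SE 0.22).

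**Figure D3:**
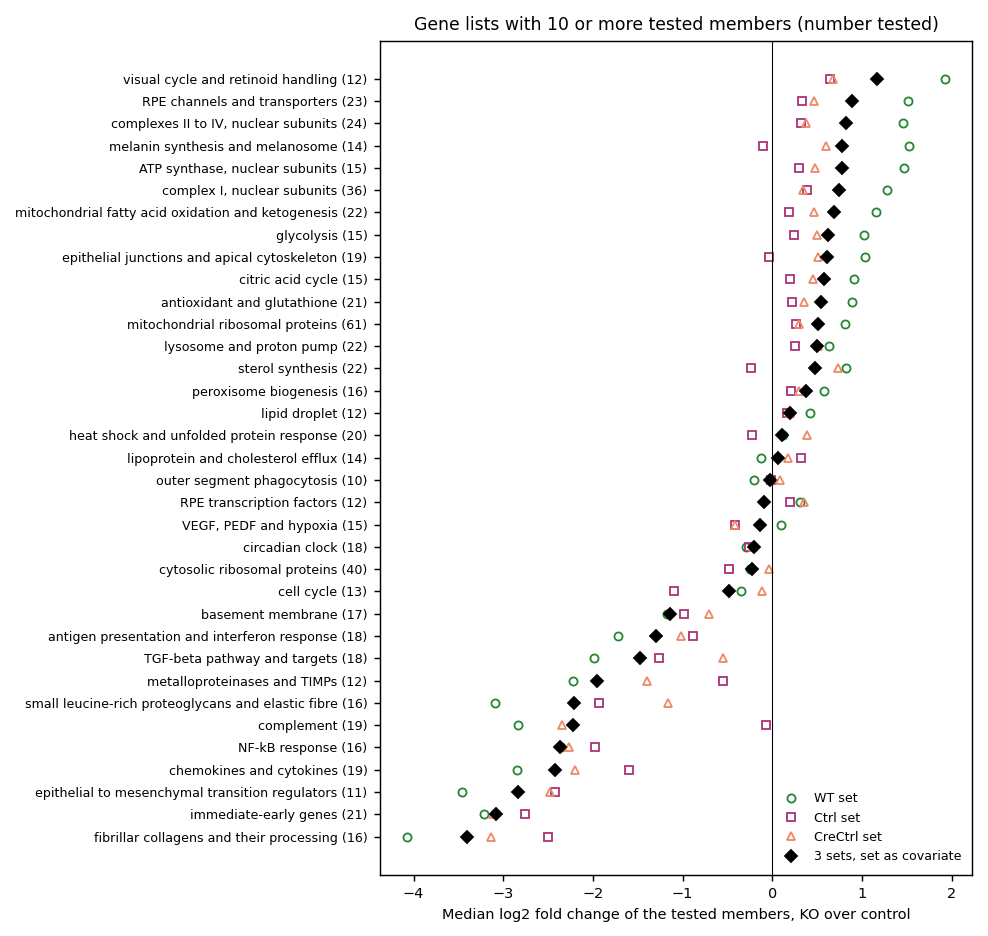
Median log2 fold change of the tested members of each process list with 10 or more members tested (number in parentheses), for each set (open symbols) and for the 3 sets together (black). The visual cycle, the RPE channels and transporters and the nuclear subunits of the respiratory chain lie to the right in each set, furthest in the WT set, RPE transcription factors (-0.093) and outer segment phagocytosis (-0.025) lie near 0 for the 3 sets together, and the immediate-early genes, with medians of -3.21, -2.76 and -3.11 in the 3 sets, lie far to the left.

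Matrix genes were among the lower ones. Fibrillar collagens and their processing enzymes fell in 12 of 16 tested genes and rose in none, 11 of them shared, with a median of -3.41. Col1a2, a chain of type I collagen, was at 1456, 1545 and 1678 CPM in WT against 125, 45.4 and 47.4 CPM in KO. In the Ctrl set it was at 377 and 114 CPM against 14.7 and 48.0 CPM, and in the CreCtrl set at 222 and 495 CPM against 21.5 and 46.3 CPM. No KO library reached a control of its set, and the WT controls were again far above the other controls (log2 fold change -3.72, SE 0.43, edgeR adjusted p = 5.58e-05). Col1a1 fell by 3.82 (SE 0.50) and Col12a1, a collagen on the surface of fibrils, by 4.42 (SE 0.46), the largest fall of the list. These 2 type I chains are also fibroblast markers, so their fall and the lower fibroblast share of the KO libraries are in part one measurement.

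Small leucine-rich proteoglycans and elastic fibre genes fell in 13 of 16, with Bgn (biglycan) at -3.46 (SE 0.44) and Omd (osteomodulin) at -4.09 (SE 0.76). Basement membrane genes fell in 10 of 17. The laminin chain Lama4 fell by 3.58 (SE 0.38), whereas Col4a4, a collagen IV chain, was not called at 0.32 (SE 0.19, edgeR adjusted p = 0.208). Metalloproteinases and TIMPs fell in 8 of 12 and rose in 3, with 5 and 0 of these shared. The gelatinase Mmp2 fell by 3.28 (SE 0.32), and Timp3, a metalloproteinase inhibitor of Bruch's membrane, rose by 0.63 (SE 0.20) without being shared. TGF-beta pathway genes and targets fell in 13 of 18, 8 of them shared, including the matricellular Ccn2 (-3.54, SE 0.62, not shared) and the actin-binding Tagln (-4.38, SE 0.71). Tagln is also in the list of pericyte and smooth muscle markers given below, so its fall in both lists is the same measurement. Regulators of the epithelial to mesenchymal transition fell in 10 of 11, among them Fn1 (fibronectin, -4.00, SE 0.47) and Vim (vimentin, -1.31, SE 0.22). In the VEGF, PEDF and hypoxia list 6 of 15 fell and 2 rose, and Serpinf1, which encodes the antiangiogenic PEDF, fell by 3.78 (SE 0.51).

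Beside these matrix genes, all 12 fibroblast markers fell, 10 of them shared, with medians of -4.06, -2.94 and -3.10 in the 3 sets. Dcn (decorin), the marker with most counts, was at 3088, 3166 and 2883 CPM in WT against 236, 68.1 and 111 CPM in KO. It was at 1011 and 662 CPM in Ctrl against 44.0 and 167 CPM, and at 563 and 1231 CPM in CreCtrl against 25.3 and 107 CPM. Gsn (gelsolin) fell by 3.54 (SE 0.27). The part of fibroblast RNA in the fall of the matrix genes was not tested apart from the covariate fit given further on.

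By the rule that took the 10 largest shared values in each direction among protein-coding genes with a mean of at least 5 CPM, the most reduced genes were Glt8d2 (log2 fold change -5.23), Comp (-5.11), Tnmd (-4.98), Chad (-4.76), Ccn5 (-4.73), D630003M21Rik (-4.70), Selp (-4.68), Cd109 (-4.63), Sele (-4.60) and Cilp2 (-4.49). Comp, Chad and Cilp2 encode matrix proteins of cartilage and other dense connective tissue, Tnmd encodes tenomodulin of tendon, and Selp and Sele encode the P- and E-selectin of activated endothelium. Comp was at 115.5, 150.2 and 131 CPM in WT against 1.36, 1.40 and 3.02 CPM in KO, at 16.2 and 3.17 CPM in Ctrl against 0.649 and 0.654 CPM, and at 11.9 and 22.4 CPM in CreCtrl against 0.163 and 1.30 CPM. Its KO libraries lay below every control of their set, at 3.02 CPM or less.

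The most increased were Cltrn (log2 fold change 2.09), Lalba (1.97), Tmem232 (1.95), Npl (1.88), Lrat (1.77), Cntnap4 (1.75), Krt23 (1.73), Fam213a (1.72), Gpm6a (1.71) and Fetub (1.71). Cltrn, or collectrin, is a partner of amino acid transporters in epithelia. It was at 26.0, 54.3 and 75.7 CPM in WT against 803, 786 and 818 CPM in KO, at 571 and 592 CPM in Ctrl against 998 and 931 CPM, and at 663 and 393 CPM in CreCtrl against 887 and 993 CPM. The KO levels of the 3 sets were alike, and the set difference lay in the controls, with the WT controls lowest. For 9 of these 10 genes, all but Tmem232 (interaction adjusted p = 0.122), the sets differed, with the WT set furthest from 0. For none of the 10 most reduced genes did the sets differ by the same test, with interaction adjusted p from 0.0826 for Ccn5 to 0.836 for Tnmd. Their set values were less precise, with an SE of up to 1.89 (Sele, Ctrl set) against 0.64 (Tmem232, Ctrl set) for the increased genes. Cd109 had set values of -4.33, -7.60 and -3.50 in the WT, Ctrl and CreCtrl sets. The test therefore does not show that the sets agreed for the reduced genes.

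The immediate-early genes, transcription factors and feedback regulators that cells switch on within minutes of a stimulus, fell throughout. All 21 were lower and all 21 were shared, with a median of -3.08 and a range from -3.52 (Egr3) to -1.77 (Ier5). Their share of all counts was 0.638 to 2.28% in the control libraries and 0.0519 to 0.273% in the KO libraries. Fos was at 2530, 2200.1 and 2141 CPM in WT against 336, 120.3 and 131 CPM in KO. It was at 1193 and 1236 CPM in Ctrl against 47.3 and 257 CPM, and at 778 and 829.6 CPM in CreCtrl against 43.9 and 112.1 CPM. The controls of a set were close to each other and the KO libraries lay far below them, spread over several-fold, and the log2 fold change was -3.34 (SE 0.37, edgeR adjusted p = 4.14e-05). Egr1 fell by 3.25 (SE 0.29). Zfp36, which encodes the mRNA-destabilising tristetraprolin and carries the CArG box shown above, fell by 3.08 (SE 0.35), with set values of -3.08, -3.08 and -3.09. No gene of this list had an interaction past the threshold.

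Within the KO libraries the immediate-early and fibroblast lists took the same order in each set. Relative to the WT mean, the mean log2 CPM of the immediate-early list was -2.46, -3.43 and -3.73 in KO replicates 1 to 3 of the WT set, and that of the fibroblast list -3.01, -4.54 and -4.89. In the Ctrl set KO replicate 1 was at -4.17 and -3.48 and KO replicate 2 at -2.01 and -2.45. In the CreCtrl set they were at -3.52 and -3.08 and at -2.59 and -2.54. The order was not particular to these lists. Endothelial markers took it too, at -1.43, -2.18 and -2.78 in the WT set. They were at -2.40 and -1.94 in the Ctrl set and at -2.49 and -2.38 in the CreCtrl set. Macrophage markers did so as well, at -2.85, -3.94 and -4.67, at -2.16 and 0.49, and at -2.79 and -2.21. The NF-kB response list, described next, did not take this order in the WT set, at -1.66, -2.58 and -2.38 in KO replicates 1 to 3. The Ctrl and CreCtrl sets have only 2 KO libraries each, and the likeness of order was not tested. Whether RNA of other cells takes part in the immediate-early difference was not tested apart from the covariate fit.

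NF-kB response genes fell in 14 of 16, all 14 of them shared. Nfkbia, the inhibitor that NF-kB itself induces, was at 248, 300.3 and 209 CPM in WT against 70.3, 51.2 and 40.1 CPM in KO. It was at 127 and 128 CPM in Ctrl against 30.2 and 40.2 CPM, and at 129.97 and 110.1 CPM in CreCtrl against 21.8 and 31.4 CPM. The groups were well apart in each set (log2 fold change -2.11, SE 0.15, edgeR adjusted p = 2.39e-06). The prostaglandin synthase Ptgs2 fell by 2.72 (SE 0.51) and the adhesion molecule Vcam1 had a log2 fold change of -3.16 (SE 0.50), whereas Tnfaip2 was not called at -0.38. Chemokines and cytokines fell in 18 of 19, 12 of them shared, with Cxcl12 at -3.29 (SE 0.33) and Il1b at -3.03 (SE 0.46).

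Complement genes split. Of 19 tested, 11 fell and 3 rose, and the median was -2.84, -0.07 and -2.35 in the WT, Ctrl and CreCtrl sets. The 2 KO libraries of the Ctrl set were unlike each other. Relative to the Ctrl mean, the mean log2 CPM of the complement list was -1.38 in KO replicate 1 and -0.21 in KO replicate 2, and that of the macrophage markers was -2.16 and 0.49. The Ctrl libraries lay 0.24 above and below their mean for complement, so that KO replicate 2 lay among them, and the part of macrophage RNA in the complement values was not tested. The C1 inhibitor Serping1 and the decay-accelerating factor Cd55 fell, at -3.19 (SE 0.38) and -3.52 (SE 0.58), and both were shared. The chaperone Clu (clusterin), which also restrains the terminal complex, rose by 1.54 (SE 0.34) and was shared, with 2.65, 0.50 and 0.95 in the 3 sets. Antigen presentation and interferon response genes fell in 11 of 18 and rose in 2, with 5 and 0 of these shared. Cd74, the invariant chain, was at -2.58 (SE 0.53) and not shared. Heat shock and unfolded protein response genes went both ways, with 4 of 20 higher and 5 lower. Hsp90aa1 rose by 1.38 (SE 0.30, not shared) and Hspb1 fell by 2.42 (SE 0.24, shared). Of the circadian clock genes 6 of 18 fell and none rose, and of the cell cycle genes 3 of 13 fell and 2 rose. Beside the 16.3% lower and 10.8% higher of all genes tested, the cell cycle counts were near the background. By mean log2 CPM, however, both lists were lower in every KO library than in the controls of its set. For the cell cycle list the KO libraries were at -0.41, -0.51 and -1.01 relative to the WT mean. They were at -1.17 and -1.04 in the Ctrl set and at -0.48 and -0.49 in the CreCtrl set.

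Markers of other cell types moved beside these lists. All 10 endothelial markers fell, 8 of them shared, with Pecam1 at -2.94 (SE 0.29) and Plvap at -1.25 (SE 0.28), and took 0.0128 to 0.0789% of the counts of a control library against 0.00348 to 0.0168% in KO. Of 8 pericyte and smooth muscle markers 6 fell, with Rgs5 at -3.98 (SE 0.50). Of 7 Schwann cell markers 3 fell and 1 rose, and S100b fell by 3.32 (SE 0.50). Of 5 erythrocyte markers all fell and none was shared. Smaller lists gave 2 of 4 mast cell, 1 of 5 T cell and 1 of 3 skeletal muscle genes lower and none higher. Of all genes tested, 16.3% were lower and 10.8% were higher. Only 1 mast cell gene and 0 T cell or skeletal muscle genes reached 1 CPM in every library. Of the choroidal melanocyte genes 3 of 7 rose and 1 fell. Dct, Pmel and Tyr of this list are also in the list of melanin synthesis and the melanosome. Of the cone genes 2 of 6 rose, and of the Mueller glia and inner retina genes 1 of 7 rose and 1 fell. The T cell and Mueller glia counts were near the shares of all genes tested. Of the ciliary and iris epithelium genes, which include Aqp1, 1 of 7 rose and 3 fell. Myoc (myocilin), of that last list, was at -4.21 (SE 0.81), and its Ctrl replicate 2 (64.4 CPM) lay between the KO libraries of its set (8.11 and 107 CPM).

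Macrophage markers fell in the pooled comparison without being apart in each set. Of 13 tested, 11 fell and 1 of them was shared, and the medians were -3.66, 0.17 and -2.78 in the WT, Ctrl and CreCtrl sets. Lyz2 (lysozyme) was at 623, 1499 and 933 CPM in WT against 121, 31.1 and 41.1 CPM in KO, and at 190.5 and 433.5 CPM in CreCtrl against 8.25 and 29.2 CPM in KO. In the Ctrl set it was at 494 and 319 CPM in Ctrl, 54.7 CPM in KO replicate 1 and 1365 CPM in KO replicate 2. One KO library therefore set the Ctrl set apart, and none of the list's interactions passed the threshold. Csf1r, the receptor for colony stimulating factor 1, differed from the rest of the list at 0.50 (SE 0.11, edgeR adjusted p = 0.00274), too small a fold to be called.

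Of 13 rod genes 1 rose and none fell, shares below the 10.8% higher and 16.3% lower of all genes tested. Gnat1, the rod transducin, was at 5.10, 93.1 and 349 CPM in WT against 244, 36.0 and 427 CPM in KO, at 415 and 86.7 CPM in Ctrl against 379 and 472 CPM, and at 220.4 and 1040.3 CPM in CreCtrl against 87.1 and 54.2 CPM. The libraries of a group were far apart, and the pooled log2 fold change was -0.22 (SE 0.92, edgeR adjusted p = 0.876), with 0.66, 0.76 and -3.16 in the 3 sets. Rom1, an outer segment disc protein, was the one that rose, by 1.22 (SE 0.32), and it was shared.

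**Figure D4:**
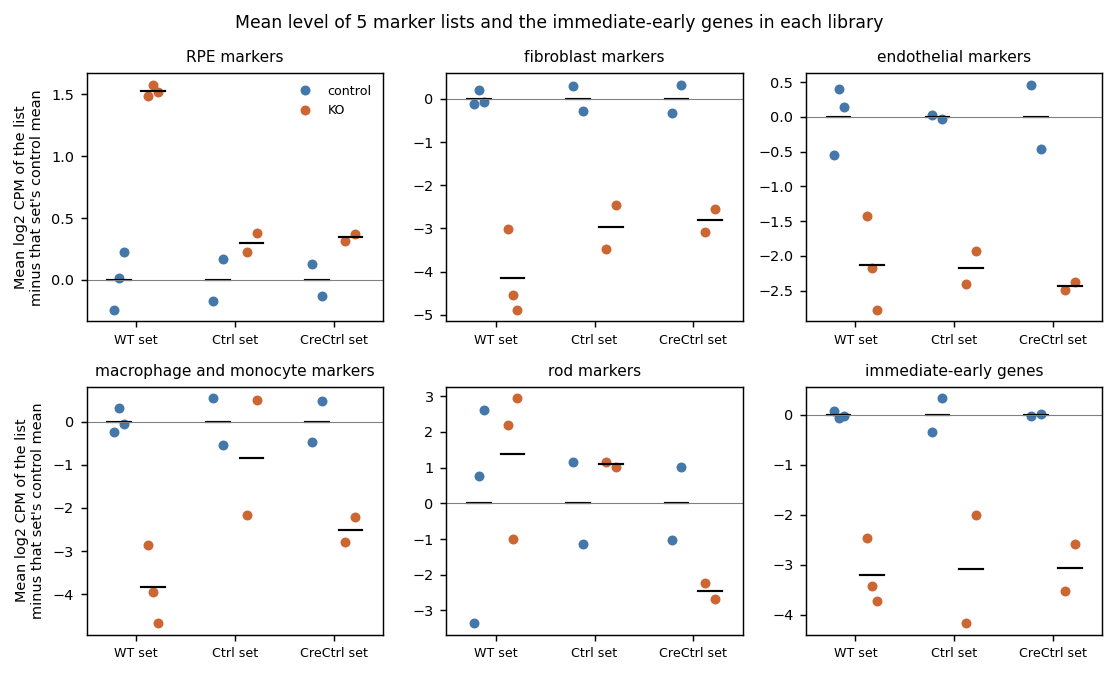
Mean log2 CPM of 5 marker lists and the immediate-early genes in each library, less the mean of that set's controls, by set, with controls in blue, KO in orange and the group mean as a bar. Fibroblast, endothelial and immediate-early genes lay below 0 in every KO library, RPE markers lay above 0, 1 KO library of the Ctrl set (0.49) overlapped the controls for macrophage markers, and rod markers showed no common direction.

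Whether the KO effect differed between sets was tested over all genes by the interaction of set and KO. The adjusted p passed in 608 genes (3.76% of those tested), of which 497 were among the called genes and 276 among the shared genes. This count moved with single libraries, from 101 without KO replicate 2 of the WT set to 1315 without Ctrl replicate 1 of the Ctrl set, and in 11 of 14 such omissions it moved by a factor of more than 1.5. Tested within the same fit, the WT set alone called 3027 genes higher and 2759 lower, the Ctrl set 16 and 639, and the CreCtrl set 192 and 523. The WT set has 3 libraries a group and the others 2, so these counts are not measures of the size of effect.

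Each set was then held out in turn, with genes called in the other 2 sets and looked up in libraries that the call had not used. The Ctrl and CreCtrl sets together called 25 genes higher and 963 lower. In the held-out WT set all 25 were higher in every KO library than in every WT library, against 23.2% of all genes tested, and 892 of the 963 (92.6%) were lower throughout, against 26.9%. With the CreCtrl set held out, 85.0% of 1798 genes called higher and 85.7% of 2068 called lower were apart in the same direction, against 34.2% and 36.4% of all genes. With the Ctrl set held out the shares were 45.6% of 2248 and 58.9% of 2944, against 17.7% and 22.8%. Genes called lower in 2 sets had the same sign in the third in 88.7 to 98.9% of cases, where 49.4 to 52.1% of all genes had that sign. Those called higher did so in 89.8 to 100% of cases, against 47.9 to 50.6% of all genes.

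The fibroblast markers were also entered as a covariate, as the mean log2 CPM of the 12 marker genes in each library. KO took up 90.1% of the variance of this score within sets, so that score and genotype were nearly the same variable, and standard errors grew by a median factor of 3.12. With set and score in the edgeR fit, 0 genes (0% of those tested) were called, 520 had an unadjusted p under 0.05, and the smallest adjusted p was 0.579. No other tool was run on this model. The median log2 fold change of the genes called higher went from 0.80 to -0.01 and that of the genes called lower from -2.19 to -0.13, and 52.2% of the called genes kept their sign. Clic4 itself went from -2.45 to 0.26 (edgeR adjusted p = 1.00), so that the deleted gene was not called in this fit. With no gene called, the list medians of this fit are descriptions only. They went from -3.08 to -1.15 for the immediate-early genes and from -2.52 to -1.17 for the endothelial markers. The visual cycle went from 1.17 to 0.09 and complex I from 0.74 to 0.06. Other lists turned positive, from -2.53 to 3.17 for the macrophage markers, from -2.03 to 1.12 for the T cell markers and from -2.23 to 0.52 for complement. The fibrillar collagens went from -3.41 to -0.03, but Col1a1, Col1a2 and Col3a1 of that list are also in the score. Genotype and fibroblast share cannot be told apart in these libraries.

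**Figure D5:**
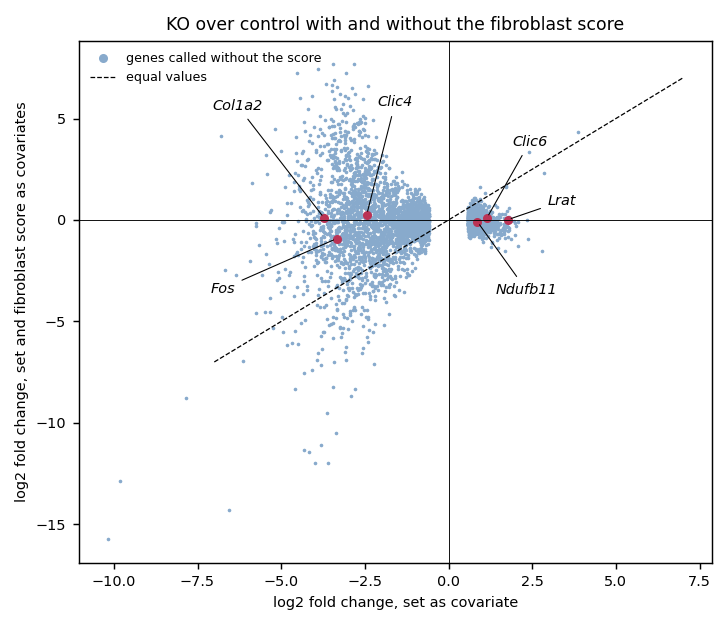
For the 4375 genes called with the set as covariate, the log2 fold change of that fit is plotted against the value with the fibroblast score as a further covariate, and the dashed line marks equal values. The points lie around 0 on the vertical axis, including Clic4 (from -2.45 to 0.26), and the lower genes spread widely.

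Counts of some named genes are uncertain because their exons lie over exons of a gene on the other strand and the strand setting of the counting is not given. The share of exon bases so covered was 67.9% for Tagln, 54.4% for Krt12, 49.1% for Kcnj13, 23.2% for Ccn2, 21.3% for Timp3, 19.3% for Pltp, 15.1% for Csf1r and 14.1% for Selp. For Mrps6, 19.9% of exon bases lay over exons of Slc5a3 and Gm49711 on the same strand, so its counts are uncertain too.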

How the data were processed

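The authors isolated RNA from RPE shaken off trypsin-treated eyecups, made stranded poly(A) libraries and sequenced paired ends. They aligned reads to GRCm38 with STAR 2.5.2, and their processing notes also name bcl2fastq 2.19, HTSeq 0.11.2 and Cufflinks 2.1.1. The authors deposited raw counts per gene (42687 genes, 42329 found in GENCODE M21), and their strand setting and annotation release are not given in the sources used here.

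Groups were taken from the labels. Counts were tested in edgeR 4.0.16 (R 4.3.3): TMM normalization, filterByExpr on the design (16181 genes), a quasi-likelihood fit with set and KO, and Benjamini-Hochberg adjustment. CPM values are TMM-scaled, and overlap was judged on log2 CPM with a prior count of 2. A second fit of 6 groups gave values per set and the interaction. The code was tested on simulated counts. Total counts ranged from 9828293 to 32384166 per library. The alternatives were RLE or no scaling factors, DESeq2 1.42.0, other count filters (10 counts in every library), no set covariate, a replicate block, a fibroblast score, and leaving out each library or set.

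Genes were named by a rule: Clic4, the 10 shared genes with the largest change in each direction, and in each list the 3 with the highest CPM and the extremes of fold change, except where said, and some genes that this rule would name are not reported here. The comparison, the gene lists and the markers were chosen with earlier results of these data known. Nothing in the labels shows whether replicate libraries of a group came from separate litters, so p-values measure the spread between these libraries.

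Replicate numbers were checked for pairing: the deviations from group means of same-numbered KO and control libraries correlated at -0.02, 0.06 and 0.17, -0.02 and 0.15 in the WT, Ctrl and CreCtrl sets, so the numbers were not taken as pairs.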

Additional observations from a re-analysis of the deposited data

Results flagged for a closer look

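Among the genes named above, 31 had KO effects that differed between the 3 sets by the interaction test of the 6-group edgeR fit, given here as the adjusted p over all genes. Among the 10 most increased shared genes these were Cltrn (0.00979), Lalba (0.011), Npl (0.0292), Lrat (0.0186), Cntnap4 (0.011), Krt23 (0.0278), Fam213a (0.00807), Gpm6a (0.00916) and Fetub (0.00979). Genes of RPE function, pigment and epithelial structure were Rgr (0.0114), Dct (0.0108), Myrip (0.0331), Oca2 (0.00533), Bsg (0.0127), Kcnj13 (0.0132), Krt18 (0.0114), Krt8 (0.011) and Ezr (0.0221). Genes of energy metabolism were Ndufb11 (0.0278), Cox4i1 (0.0495), Atp5b (0.0285), Eci1 (0.0127), Aldoa (0.0128) and Eno1 (0.0368), and further higher genes were Plin2 (0.0248), Cst3 (0.0264), Cat (0.0427), Clu (0.018) and Hsp90aa1 (0.0138). In all of these the log2 fold change was most positive in the WT set. The lower gene Vim (0.0221) had its largest fall in the WT set, and Pmel (0.025) was positive there and negative in the other sets.

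A library stood apart from the other 6 KO libraries or the other 6 control libraries in 4 of 190 groups tested, where chance flags about 1 in 20 groups. These groups span the 3 sets, and the controls are of 3 genotypes, so differences between sets and control genotypes enter them. Best1 was highest in KO replicate 2 of the Ctrl set, at 2.79 CPM where the next KO library had 1.56 CPM. Timp3 was highest in Ctrl replicate 2 of the Ctrl set, at 9291 CPM where the next control had 5846 CPM. Cd55 was at 0 CPM in KO replicate 3 of the WT set, where the next KO library had 0.519 CPM. S100b was lowest in KO replicate 1 of the CreCtrl set, at 0.123 CPM where the next had 1.54 CPM.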

How the results depend on the processing

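Of the called genes, 92.3% were also called with RLE scaling, 92.9% with DESeq2 and 90.4% with the replicate block, which gave 4046 called genes with 2347 of the 2423 shared genes among them. Deviations paired by replicate number did not correlate in every pair, so the numbers are no more than names here. The median of the lipoprotein and cholesterol efflux list turned negative with RLE, DESeq2 and library size alone, and those of the lipid droplet and heat shock lists with library size alone. The share of called genes that were higher was 39.8%, but 33.6% with RLE, 32.1% with DESeq2 and 15.9% with library size alone, where the median of all genes was -0.27. Library size alone gave 681 genes higher, 260 of them shared, and an interaction in 399. The interaction passed in 2531 genes without the count filter and in 1522 with DESeq2, and in 101 to 1315 when 1 library was left out, so it depends on single libraries. With the WT set left out 988 genes were called, 25 higher and 963 lower, 25 and 960 of them shared by the other sets. With the Ctrl set left out the shared genes were 2041 higher and 2610 lower, and counting the same sign in each set, whatever the overlap, gave 1652 and 2545. Leaving out 1 library gave 763 to 1557 shared higher genes, with 1557 without Ctrl replicate 2 and 1446 without KO replicate 2 of the Ctrl set, which left a group with 1 library. With the fibroblast score 0 genes were called, 0 higher and 0 lower, and 0 were shared.

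With that score the log2 fold change turned positive for Clic4 (0.26). It turned negative for these genes with positive values without it: Cltrn -0.11, Lalba -0.72, Tmem232 -0.058, Npl -0.073, Cntnap4 -0.29, Fam213a -0.28, Gpm6a -0.11, Fetub -0.33, Rgr -0.17, Dct -0.15, Myrip -0.36, Oca2 -0.22, Kcnj13 -0.22, Ndufb11 -0.091, Ndufs5 -0.030, Cox4i1 -0.028, Atp5b -0.090, Eci1 -0.18, Aldoa -0.0078, Eno1 -0.33, Plin2 -0.14, Col4a4 -0.71, Clu -0.15, Rom1 -0.062, Krt18 -0.095, Krt8 -0.23, Ezr -0.33, Hsp90aa1 -0.36 and Mrps6 -0.15. It turned positive for these genes with negative values without it: D630003M21Rik 0.86, Best1 0.61, Gstm1 0.77, Col1a1 0.37, Col1a2 0.094, Bgn 0.14, Omd 2.101, Ccn2 0.87, Serpinf1 0.0075, Vim 0.42, Serping1 0.34, Il1b 0.87, Tnfaip2 0.058, Vcam1 1.02, Lyz2 3.17, Myoc 0.89 and Cd74 1.41. The cause was not tested. Other reversals concerned genes that were not called: Pmel, between -0.59 and 0.063 when 1 library was left out, reached 0.063 without Ctrl replicate 2 of the Ctrl set, 0.22 without the Ctrl set and 0.073 without the CreCtrl set. Col4a4 reached -0.10 without the WT set. Gnat1 reached 0.70 without the CreCtrl set, and ranged from -0.66 to 0.23 when 1 library was left out, above 0 without WT replicate 3 of the WT set or without CreCtrl replicate 2, KO replicate 1 or KO replicate 2 of the CreCtrl set.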
